A study of Homo sapiens with 6 samples.

Results

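Zinc finger genes of chromosome 19 were taken as the protein-coding genes of that chromosome whose symbol starts with ZNF, in hg19. The rule found 249 genes among the 1480 protein-coding genes of the chromosome, and the other 1231 served as the comparison. The rule itself uses no measured value, but it was chosen with earlier results of these data known. END-seq, which captures DNA ends, had been performed on HCT116 cells, a human colorectal carcinoma line, in 2 biological replicates per condition. The cells were untreated or given 10 µM camptothecin (CPT) for 10 or 20 min, and murine pre-B cells served as a spike-in. The sample titles write the later time as 20 µM, whereas the protocol gives a single dose and both times, and the protocol was followed. The lists analysed here are 8: a forward and a reverse peak list for each of 4 treated libraries. The untreated libraries entered as the input of peak calling, and their own levels were not analysed here. The lists held 286491 to 826744 peaks each, the shortest in replicate 2 at 20 min and the longest the reverse list of replicate 1 at 10 min, and read depth is unknown from them.

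C2H2 zinc finger proteins bind DNA through tandem fingers that are mostly encoded in 1 terminal exon. Many of them carry a KRAB domain, which recruits TRIM28 and heterochromatin factors and silences transposable elements. The genes lie in clusters of tandem duplicates, and the clusters of chromosome 19 are known for heterochromatin marks over their 3′ exons. CPT traps topoisomerase I on DNA, and a trapped complex can become a double-strand break (DSB) when it meets a replication or transcription machinery. Both ends of a DSB give END-seq reads, those to the left of the break in the reverse list and those to the right in the forward list. A reverse peak and the nearest forward peak to its right, when less than 150 bp apart, were joined into a site, and a replicated site overlaps a site of the other replicate.

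The label held at the sequence level: 247 of the 249 genes encoded at least 1 C2H2 finger pattern, with a median of 12, and 191 (76.7%) encoded a KRAB pattern, against 22 of the 1231 other genes. The 2 without a finger were the readthrough genes ZNF625-ZNF20 and ZNF816-ZNF321P. The DNA of the conserved linker between fingers was present in the terminal exon of 211 members (84.7%) and of 21 other genes (1.71%). Member genes were longer, with a median body of 25.9 kb against 13.8 kb, and poorer in GC, with a median of 43.6% against 54.0%. By 100-base words counted on chromosome 19, the median member body was 99.9% unique. The bodies of 55 members overlapped another member, so neighbours share peaks.

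Few peaks were found at the same place in every library. These stretches were looked at after the data were seen, and the genes named for them were chosen by their values. In member bodies, 25 stretches lay under a peak of the same strand in all 4 libraries, 17 of them reverse and 8 forward. They fell in 24 genes (9.64%) and made 3.31 per Mb of body, against 342 stretches, 219 genes (17.8%) and 13.2 per Mb for the other genes. No such count was made for genes of like GC content or for all protein-coding genes. Of the 25, 9 lay within 5 kb downstream of a member's 5′ end. The stretches of ZNF536 and ZNF738 are among the 5 with the highest lowest −log10 q over the libraries, and are written 5′ to 3′ on the strand of the gene. In ZNF536 the summits spread over 12 bp. In ZNF738 they spread over 401 bp, and only that of replicate 1 at 10 min lay inside the stretch. Capitals mark the bases between the lowest and the highest peak summit of the 4 libraries, as far as they lie inside the shared stretch.
ZNF536 (chr19:31039067-31039221, hg19, plus strand): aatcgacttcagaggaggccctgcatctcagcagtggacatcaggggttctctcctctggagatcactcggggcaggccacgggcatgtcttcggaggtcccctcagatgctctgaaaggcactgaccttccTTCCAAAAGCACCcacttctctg
ZNF738 (chr19:21544995-21545126, hg19, plus strand): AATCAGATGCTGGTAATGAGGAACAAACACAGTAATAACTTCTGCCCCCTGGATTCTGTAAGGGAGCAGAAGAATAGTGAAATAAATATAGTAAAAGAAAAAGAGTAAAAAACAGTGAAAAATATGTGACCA

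In each of the 4 libraries the ZNF536 stretch lay under the peak with the highest −log10 q in any member body. ZNF536 encodes a neuronal transcriptional repressor, and the 155 bases lay wholly in its coding sequence. The reverse-strand peak had a −log10 q of 89.1 and 142 in replicates 1 and 2 at 10 min, and of 123 and 34.9 at 20 min. Its summits in the 4 libraries lay within 12 bp of each other, at 31039199 to 31039211. A forward peak within 150 bp was listed in 2 of the 4 libraries. The body of ZNF536 as a whole was low, at 0.804, 0.835, 0.738 and 0.840 times the density of the genome.

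The other recurrent stretches had lower values, and the 4 next to it in rank had summits spread over 114 to 422 bp. A reverse peak shared by the overlapping genes ZNF565 and ZNF146 had values of 31.2, 18.6, 27.9 and 18.5, with summits spread over 422 bp and a word of 20 bases that occurred 995 times on the chromosome. In ZNF627 the values were 23.4, 13.2, 11.98 and 10.9, in an intron. In ZNF738 the values were 14.2, 14.5, 13.1 and 8.71 and no forward peak lay within 150 bp in any library. In ZNF562 they were 6.42, 7.44, 6.12 and 7.70, at 652 bp downstream of the 5′ end. Among the weaker stretches, ZNF548 had 1 at 404 bp and ZNF317 had 1 on each strand, at 932 and 1378 bp downstream of their 5′ ends.

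**Figure D1:**
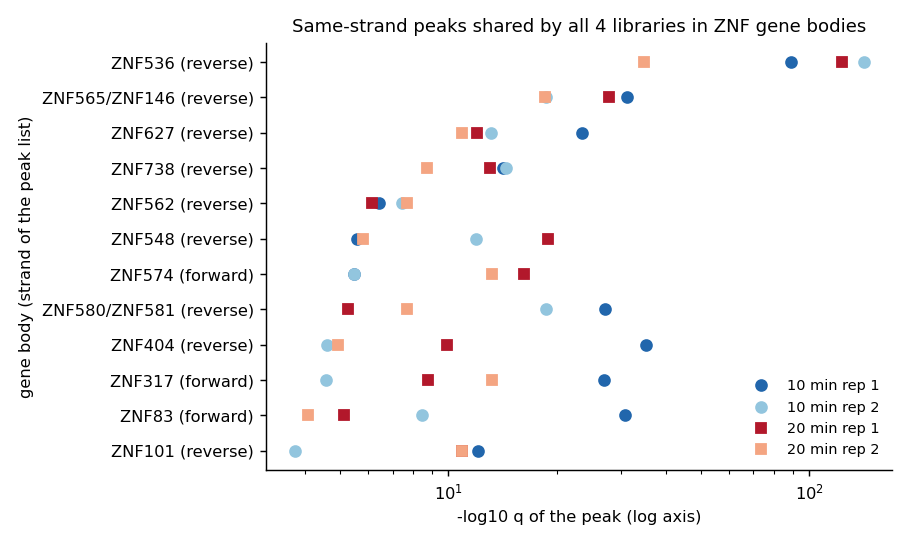
The −log10 q (log axis) of the peak in each library at the 12 same-strand stretches with the highest lowest value over the 4 libraries, by member gene and strand of the list; blue circles are 10 min, red squares 20 min, darker for replicate 1. The ZNF536 reverse peak stands at 34.9 to 142, above every other stretch in all 4 libraries.

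Over gene bodies, members carried peaks at the density of the genome. Peaks were counted by summit, and the relative density is peaks per kb divided by the same lists' density over chromosomes 1 to 22 and X, so that list length cancels. Member bodies held 3781 and 2751 summits in replicates 1 and 2 at 10 min and 3195 and 1499 at 20 min. Their relative density was 1.00, 0.985, 0.984 and 0.982 in these libraries. The other genes of the chromosome stood at 1.36, 0.992, 1.61 and 1.12. Members thus varied by little between libraries, while the other genes varied with the replicate, and in replicate 2 at 10 min the groups were nearly equal. The log2 ratio of members to other genes was -0.44, -0.01, -0.71 and -0.19, with a mean of -0.34 (ratio 0.792), lower in 4 of 4 libraries. Without replicate 1 at 20 min the mean was -0.21. By time it was -0.22 ± 0.30 at 10 min and -0.45 ± 0.37 at 20 min (SD, n = 2 each). An exact two-sided sign-flip permutation test over the 4 libraries gave p = 0.125, which is the smallest p that 4 libraries allow, so no comparison of this kind could pass 0.05. The forward lists alone gave a mean of -0.39, lower in 4 of 4 libraries, and the reverse lists -0.28, lower in 3 of 4 (exact sign-flip p = 0.25). By the median density per gene, the mean was -0.34, lower in 3 of 4 (exact sign-flip p = 0.25). The study's methods list the samples as 2 experiments, each with untreated cells and both times, so libraries of the same replicate may not be independent, and with 2 experiments the smallest p would be 0.5.

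The ends of the genes showed the same order. Within 5 kb of the 5′ end, the relative density of members was 1.04, 0.974, 1.12 and 1.02, and that of the other genes 1.44, 1.09, 1.75 and 1.32 (mean log2 ratio -0.41, exact sign-flip p = 0.125). Within 5 kb of the 3′ end, members stood at 0.989, 0.987, 1.05 and 1.00 and the other genes at 1.42, 1.05, 1.72 and 1.22 (mean log2 ratio -0.40, exact sign-flip p = 0.125). In both windows the other genes were higher in every library.

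**Figure D2:**
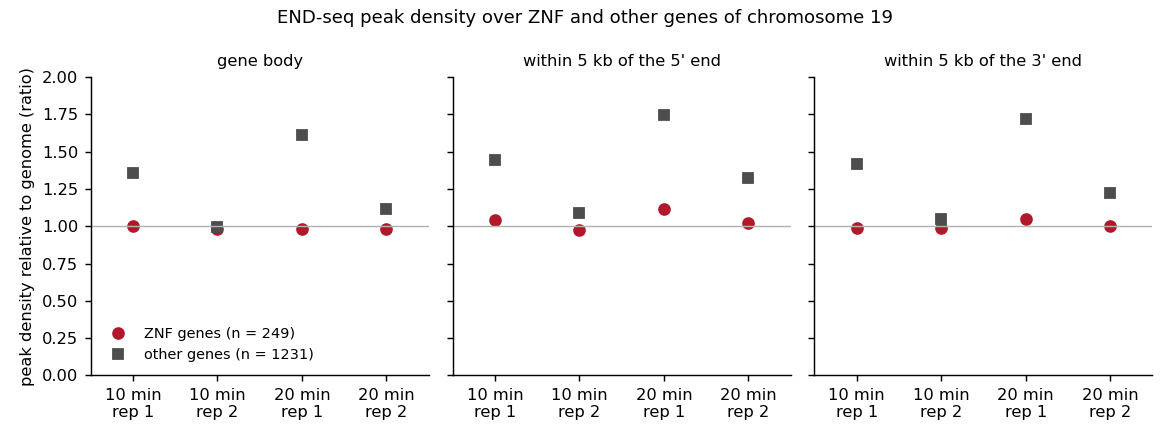
Peak density relative to the genome (ratio) in each of the 4 libraries, over gene bodies and within 5 kb of each gene end; circles are the 249 ZNF genes and squares the 1231 other protein-coding genes of chromosome 19, and the grey line is the genome's density. Over bodies the ZNF genes lie between 0.982 and 1.00, and the other genes between 0.992 and 1.61.

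The difference was smaller against other genes nearer to the members in base composition. Against the 269 other genes whose body GC content lay between the 10th and the 90th percentile of the members, from 39.1% to 50.4%, the body log2 ratio was -0.15, 0.09, -0.36 and 0.08, below 0 in replicate 1 and above 0 in replicate 2 at both times (mean -0.09, exact sign-flip p = 0.625). At the 5′ end the mean became -0.05 and at the 3′ end -0.02. These 269 genes were not matched to the members: their median GC content was 47.2% against 43.6%, and 21 of them encoded a KRAB pattern. Across members, the rank correlation of body GC content with density was 0.125, -0.06, 0.21 and -0.01. Across all other genes of the chromosome it was 0.25, 0.135, 0.39 and 0.12. Against the 238 other genes within 100 kb of a member, a comparison added after the data were seen, the body values were -0.20, 0.07, -0.52 and -0.02 (mean -0.17). Against the 267 ZNF genes of other chromosomes, members were lower over the body in 4 of 4 libraries, at -0.12, -0.06, -0.19 and -0.19. Against the 696 other genes of the members' length range the mean was -0.39. Whether GC content acts on breaks, on sequencing or on peak calling was not tested.

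Between 10 and 20 min the body density of members moved by less than the spread of the libraries at 10 min. The body density at 20 min differed from that at 10 min by -0.02 on the log2 scale (exact permutation p = 0.333, the smallest that 2 against 2 allows), with -0.03 and -0.0045 within replicates 1 and 2. The other genes differed by 0.21, from 0.25 and 0.17 within replicates (exact permutation p = 0.667). Near the 5′ and 3′ ends, members differed by 0.08 and 0.05.

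Peaks were denser downstream than upstream of the 5′ ends, a comparison added after the data were seen. In the 5 kb upstream of the 5′ end, member density was 0.986, 0.926, 1.00 and 0.871, and in the 5 kb downstream it was 1.10, 1.00, 1.23 and 1.19. Downstream exceeded upstream in 4 of 4 libraries, by a log2 ratio of 0.14 ± 0.03 at 10 min and 0.37 ± 0.10 at 20 min (SD, n = 2 each; exact sign-flip p = 0.125 over the libraries, exact permutation p = 0.333 between times, each the smallest possible). In the other genes the ratio was also above 0 in every library, at 0.096 ± 0.006 and 0.20 ± 0.12 (exact sign-flip p = 0.125, exact permutation p = 0.333). In the ZNF genes of other chromosomes, mean density was 1.06 upstream and 1.29 downstream at 10 min, and 1.23 and 1.63 at 20 min. The bin from 1 to 2 kb downstream held the highest value of the members at 20 min, 1.35 ± 0.02, against 1.10 ± 0.0007 at 10 min. At 10 min the members' highest bin was that from 4 to 5 kb downstream, at 1.12 ± 0.19. The other genes peaked in the bin from 1 to 2 kb at both times, at 1.84 ± 0.23 at 20 min and 1.41 ± 0.22 at 10 min, on a higher base. Among peaks whose −log10 q reached 10, members had 69, 5, 61 and 3 summits upstream and 142, 18, 96 and 21 downstream. The corresponding density ratio was 2.04, 3.57, 1.56 and 6.94 in members, against 1.15, 1.43, 1.26 and 1.78 in the other genes.

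**Figure D3:**
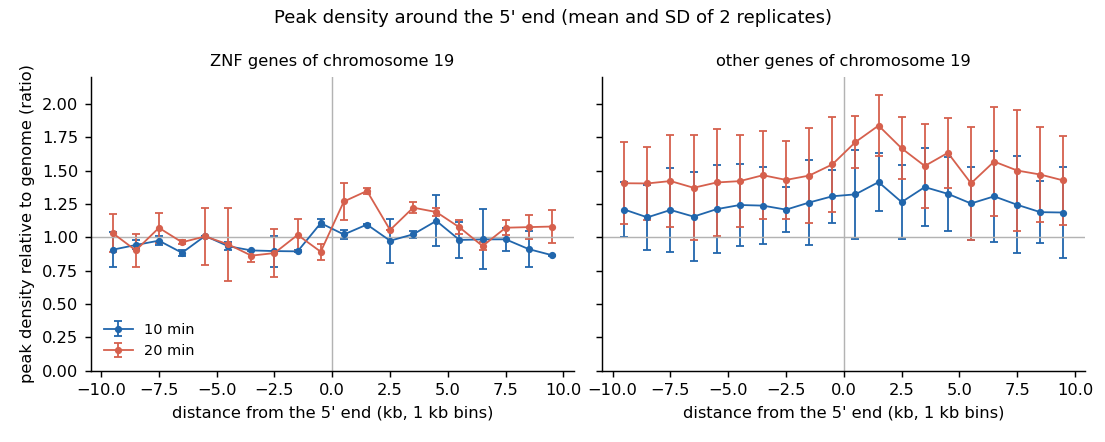
Peak density relative to the genome (ratio) in 1 kb bins from 10 kb upstream to 10 kb downstream of the 5′ end, for ZNF genes (left) and other genes of chromosome 19 (right); points are means and bars the SD of 2 replicates, blue for 10 min and red for 20 min. In ZNF genes the 20 min curve rises from 0.892 in the last upstream bin to 1.35 at 1 to 2 kb, while at 10 min these bins stand at 1.11 and 1.10.

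In the 5 kb upstream of the 5′ end, peaks on the strand of the gene made 41.0%, 44.3%, 47.4% and 41.8% of the summits after scaling each list to its length, below 50% in 4 of 4 libraries (exact sign-flip p = 0.125). In the other genes the shares were 48.8%, 48.0%, 49.4% and 50.6%. Among the windows at the gene ends, the upstream one had the lowest mean share in members. In the 5 kb inside the 3′ end, members also stood below 50%, at 45.7%, 48.8%, 46.6% and 49.6% (exact sign-flip p = 0.125). Downstream of the 5′ end they were above 50% in 1 of 4 libraries, and beyond the 3′ end in 2 of 4. Low shares were thus not confined to the upstream side. Alternatives in processing were run for the body share only. Over member bodies the shares were 53.6%, 52.0%, 51.5% and 49.2%, above 50% in 3 of 4 libraries (exact sign-flip p = 0.25). With only peaks whose −log10 q reached 10, the mean log2 ratio over bodies was -0.28, with the libraries split 2 against 2 (exact sign-flip p = 0.5). Without replicate 1 at 10 min the mean over all peaks was 0.05, against 0.09 with it.

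The terminal exon, where the fingers are encoded, was close to the rest of the body. Its relative density was 1.03, 1.06, 1.00 and 1.02, and that of the rest 1.00, 0.975, 0.982 and 0.976, a ratio of 1.04 with 4 of 4 libraries above 1 (exact sign-flip p = 0.125). In the other genes the ratio was 1.15. GC content was lower in the members' terminal exons than in the rest (41.3% against 43.5%) and higher in those of the other genes (54.9% against 51.4%). With only peaks whose −log10 q reached 10, the members' log2 ratio turned to -0.48, below 0 in 4 of 4 libraries (exact sign-flip p = 0.125).

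Replicated sites were listed at few members. At 10 min, 5 of 249 bodies held one, 2.01% (95% Wilson interval 0.861 to 4.61), against 90 of 1231 other bodies, 7.31% (5.99 to 8.90), and 9.23% of all protein-coding genes. Within 5 kb of the 5′ end it was 1 member (0.402%) against 79 other genes (6.42%) and 5.74% of all genes, and within 5 kb of the 3′ end 2 members (0.803%) against 68 (5.52%) and 3.58%. At 20 min, 1 member body (0.402%) held one, against 111 other bodies (9.02%) and 8.45% of all genes. Within 5 kb of the 5′ end it was 3 members (1.20%, 0.411 to 3.48) against 104 (8.45%) and 7.1%. Within 5 kb of the 3′ end it was 0 of 249, which allows a share of up to 1.20% by 3 counts and 1.52% by the Wilson interval, against 90 (7.31%) and 4.21%. These intervals cover counting error only, and overlapping neighbours can share a site. Counting the body and both flanks, 0 members had a replicated site at both times and 8 at either (3.21%), against 74 (6.01%) and 229 (18.6%) of the other genes. These shares were not computed over all protein-coding genes. With only 5 members called at 10 min and 3 at 20 min, the 0 cannot show whether sites at these genes persist. By time, 2.01% of members had one at 10 min and 1.20% at 20 min, against 6.32% and 5.58% of the 269 other genes in the members' GC range 8.61% and 7.87% of the ZNF genes of other chromosomes, and 11.5% and 11% of all protein-coding genes. These shares were described and not tested.

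With the sites of replicate 2 at 10 min alone, 52.6% of members had a site in the body or flanks, against 45.2% of the other genes. The direction thus turned against the other genes, while 56.3% of all protein-coding genes had one. With replicate 1 alone it was 59.0% against 77.9%, and 76.4% of all genes. At 20 min it was 56.6% against 81.6% and 19.3% against 27.4%, and 76.5% and 35.5% of all genes. Per Mb of body, members held 30.6, 19.3, 26.8 and 5.96 sites and the other genes 70.9, 20.8, 81.5 and 10.9. The share of peaks that overlapped a same-strand peak of the other replicate was lower in members in 7 of the 8 lists. In the forward lists, 11.3% and 13.2% of member peaks at 10 min overlapped a peak of the other replicate against 14.1% and 22.6% in the other genes, and 7.27% and 16.3% against 11.9% and 36.6% at 20 min. The exception was the reverse list of replicate 1 at 10 min, the longest list, with 13.5% against 12.8%.

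**Figure D4:**
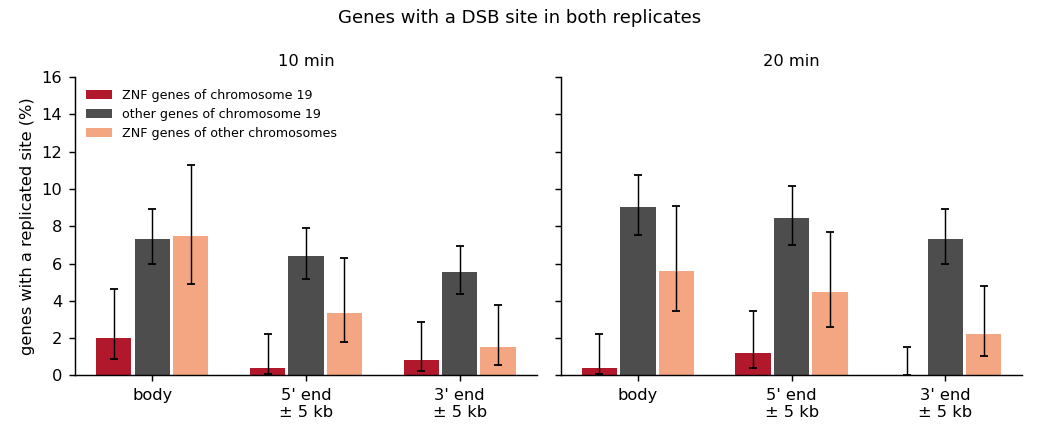
Percent of genes with a site in both replicates, at 10 min (left) and 20 min (right), in the body and within 5 kb of each end; bars are the 249 ZNF genes of chromosome 19, its 1231 other genes and the 267 ZNF genes of other chromosomes, with 95% Wilson intervals. The ZNF genes of chromosome 19 reach at most 2.01%, and the other genes of the chromosome 5.52% to 9.02%.

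The 5 members with a site at 10 min were ZNF121, ZNF431, ZNF91, ZNF507 and ZNF574, and the 3 at 20 min were ZNF317, ZNF98 and ZNF526. The stretch that both replicates' sites shared is printed for ZNF121 and ZNF526, on the strand of the named gene. Capitals mark the first 20 bases, which had 1 exact copy on chromosome 19 in each.
ZNF121 at 10 min (chr19:9689857-9689878, hg19, minus strand): CCACATCCTCATCAGTATTTgt
ZNF526 at 20 min (chr19:42720832-42720886, hg19, plus strand): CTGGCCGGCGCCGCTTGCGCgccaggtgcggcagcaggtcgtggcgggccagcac

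ZNF91 encodes a KRAB zinc finger protein that represses retrotransposons, with 31 finger patterns here. Its site had a −log10 q of 4.66 and 2.21 in the replicates. It lay mostly in an intron and was not listed at 20 min in either replicate. The ZNF121 site, with values of 7.17 and 2.19, lay in an intron 5309 bp from the 5′ end, shared only 22 bases between replicates and had a counterpart in replicate 1 at 20 min with a value of 3.64. The ZNF526 site, with 4.43 and 2.58, lay at -3543 bp from the 5′ end of that gene, inside DEDD2, where the printed 55 bases were 80.0% GC.

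In ZNF574, a site with values of 2.56 and 4.60 at 10 min overlapped a site of 16.2 in replicate 1 at 20 min. No site was listed there in replicate 2 at 20 min, but a stretch inside it lay under a forward peak in all 4 libraries. That peak had a −log10 q of 13.2 in replicate 2 at 20 min. The 10 min site was intronic in the transcript used here, but 167 of the 180 bases shared by the replicates were UTR in another. In these bases 1 word of 20 bases occurred 4502 times on chromosome 19. The ZNF507 site (4.66 and 6.40) lay at -784 bp from the 3′ end, inside the gene. The ZNF431 site (1.85 and 2.19) lay in its last exon, the weakest of the 8. At 20 min the ZNF317 site (7.02 and 2.58) was 1187 bp downstream of the 5′ end, and the ZNF98 site (5.15 and 4.90) was at -1282 bp from it, with a site of 1.85 in replicate 1 at 10 min.

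Of the 224 members with a body of at least 10 kb, 28 (12.5%) lay above the genome's density in all 4 libraries and 43 (19.2%) below it in all 4. For the other genes of that length the shares were 25.4% of 786 and 6.74%. Rank correlations between libraries across the 249 members ran from 0.226 to 0.443, with the points sharing genes and length, and are given as a description.

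The highest members by their worst rank over the libraries were ZNF581, ZNF146, ZNF791, ZNF506, ZNF507 and ZNF121. ZNF146, which encodes a protein made almost wholly of fingers, had 32, 19, 26 and 9 summits over its 24.2 kb body and a relative density of 2.65, 2.12, 2.502 and 1.84. ZNF581 had 2.37, 1.86, 2.52 and 2.92 over 10.2 kb of 58.4% GC. ZNF121 had 1.82, 1.34, 1.83 and 3.07, and ZNF791 had 1.57, 1.53, 2.74 and 1.94. In these 4 genes each library lay above the genome's density, which follows from the choice by worst rank. Among the 6, ZNF506, at 1.39, 1.88, 1.75 and 1.79, had a GC content of 40.5%, and ZNF507, at 1.57, 1.48, 1.66 and 1.65, one of 39.8%.

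The lowest members were ZNF737, ZNF154, ZNF66, ZNF417, ZNF433 and ZNF543, all with a KRAB pattern. ZNF737 had 8, 6, 2 and 0 summits over 29.99 kb, a relative density of 0.535, 0.541, 0.155 and 0. ZNF417 had 0.123, 0.663, 0.285 and 0.606, and only 90.5% of its body was unique at 100 bases. ZNF66 had 0.476, 0.642, 0.483 and 0 over 33.7 kb. In all 6 every library lay below the genome's density, which follows from the choice by best rank. Few breaks and few mappable reads cannot be told apart in ZNF417 by these lists.

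**Figure D5:**
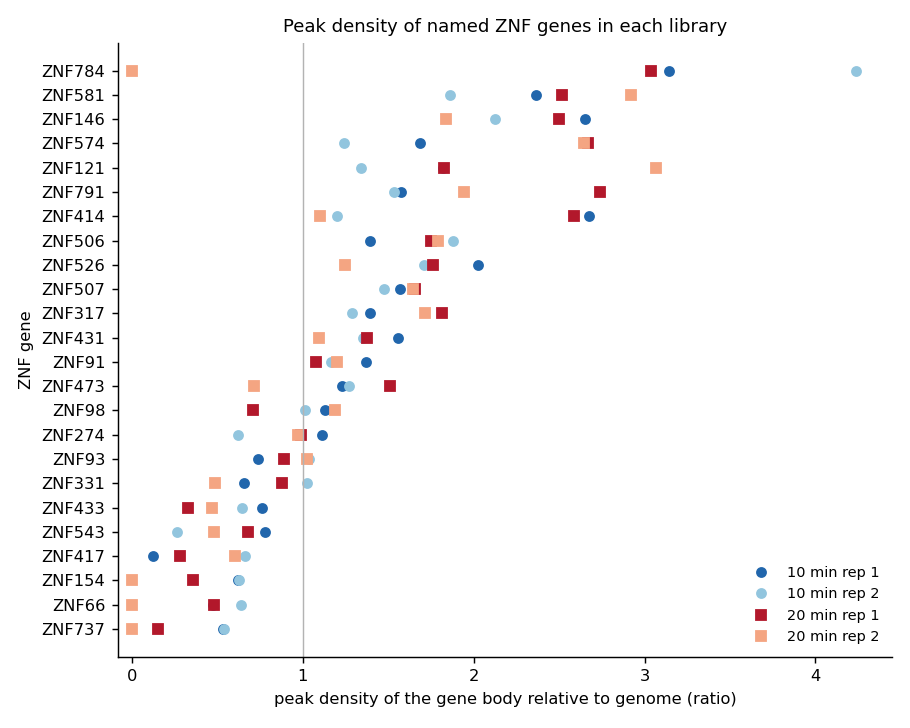
Peak density of the gene body relative to the genome (ratio) in each library for the members named in the text; blue circles are 10 min, red squares 20 min, darker for replicate 1, and the grey line is the genome's density. ZNF146 lies between 1.84 and 2.65, and ZNF737 between 0 and 0.541.

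Of the other members with a known role, ZNF91 stood at 1.37, 1.165, 1.08 and 1.20, and ZNF93, another KRAB gene that represses retrotransposons, at 0.737, 1.04, 0.892 and 1.03. ZNF274, whose protein binds the 3′ ends of zinc finger genes and recruits the histone methyltransferase SETDB1, stood at 1.12, 0.620, 0.990 and 0.972. ZNF331, an imprinted gene, stood at 0.660, 1.02, 0.881 and 0.488. ZNF473, whose protein acts in histone pre-mRNA processing, stood at 1.23, 1.27, 1.51 and 0.714. Of these 5, only ZNF91 was on the same side of the genome's density in all 4 libraries. The most summits within 5 kb of a 5′ end were at ZNF791 (11, 4, 14 and 7), ZNF784 (12, 8, 11 and 1), ZNF414 (12, 4, 12 and 3) and ZNF506 (7, 8, 10 and 5), and no member had 0 summed over the libraries.

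By position, members fell into 16 groups separated by gaps of more than 1 Mb. The largest, 59 genes from ZNF628 to ZNF446 at the end of the long arm, stood at 0.911, 0.860, 0.913 and 0.887, and the next, 40 genes from ZNF175 to ZNF331, at 0.915, 0.989, 0.930 and 0.935. Both were below the genome in all 4 libraries and held 0 replicated sites. The 37 genes from ZNF101 to ZNF254, with the lowest GC content of these (40.1%), stood at 1.05, 1.04, 0.879 and 0.992 and held 2 genes with a site at 10 min and 1 at 20 min. Over all members 2.01% had a replicated site at 10 min and 1.20% at 20 min, against 11.5% and 11% of all protein-coding genes. The 16 genes from ZNF557 to ZNF846 were above the genome throughout, at 1.26, 1.17, 1.14 and 1.28. The pair ZNF574 and ZNF526, at 56.0% GC, stood highest at 1.81, 1.42, 2.33 and 2.12.

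The 191 with a KRAB pattern had a body density of 0.991 ± 0.02 at 10 min and 0.971 ± 0.006 at 20 min, and the 58 without 1.01 ± 0.004 and 1.03 ± 0.02 (SD, n = 2). The 66 members with up to 9 fingers had 1.07 ± 0.08 and 1.12 ± 0.03, the 108 with 10 to 14 had 0.962 ± 0.02 and 0.940 ± 0.04, and the 75 with 15 or more had 0.998 ± 0.02 and 0.981 ± 0.07.

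Related genes outside the rule were taken from lists of symbols. Of 18 other C2H2 genes of chromosome 19, 17 were found under their symbol, with a median relative density of 0.857, and 1 had a replicated site at 10 min and 2 at 20 min. Of all protein-coding genes, 11.5% had one in the body or flanks at 10 min and 11% at 20 min, and these short lists were not tested against that. Of 8 genes for partners of KRAB proteins, 4 had a replicated site at 10 min and 2 at 20 min, and the median was 1.67. The density in this list ran from 0 in all 4 libraries at DAXX, whose body is 4.46 kb, to 3.06, 3.26, 3.92 and 3.58 at CBX3. TRIM28, the corepressor that KRAB domains bind, stood at 1.81, 1.62, 2.45 and 3.71 and had no replicated site.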

How the data were processed

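END-seq peak lists of HCT116 cells were analysed for 4 CPT-treated libraries (2 replicates at each time). Per the labels and the study's methods, the authors trimmed reads with Trim Galore, aligned them to hg19 with Bowtie2, filtered them with SAMtools, and called peaks with MACS2 for each library and strand against the untreated library, without pooling replicates. Spike-in scaling was not part of peak calling. The deposited columns hold a score, the fold enrichment over the control, and −log10 p-values and −log10 q-values; positions and −log10 q were used here. Per-sample columns left unused by lack of a label numbered 0.

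Genes came from GENCODE on GRCh37, the build of hg19, with names, exons and UTRs from it. Summits were counted over the union of gene bodies or of 5 kb windows on each side of a gene end, bases of member windows being left out for the other genes. Sites were built with bedtools 2.31.1, and sites sharing at least 1 bp between replicates were called replicated. Tests were exact two-sided permutations over libraries, with SciPy 1.17.1, NumPy 2.4.6, pandas 2.3.3 and Python 3.11.15. The smallest p is 0.125 for sign flips over 4 libraries and 0.333 for 2 against 2. Figures were drawn with matplotlib 3.10.9. Scripts were tested on simulated data. p-values measure the spread between these libraries.

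Named genes were those with a replicated site, the 6 highest and 6 lowest members with a body of at least 10 kb by worst and best rank of summits per kb over the libraries, the 4 with most summits near the 5′ end, and 6 with known roles. The members and lists were chosen with earlier results of these data known. The KRAB pattern was widened after it was seen to miss members. Alternatives were another q threshold, lists of equal length, overlap counting, other comparison genes, a replicate block and leaving out each replicate. The sequences of some stretches are not reported here.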

Additional observations from a re-analysis of the deposited data

How the results depend on the processing

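Of 94 alternatives over 9 results, 79 kept the direction (and, for shares of genes with a site, stayed close in size), 11 moved such a share and 4 reversed the sign. The alternatives to the 5′ asymmetry and the comparison with genes within 100 kb were chosen after seeing the data. The mean log2 ratio of members to other genes stayed below 0 in every alternative, between -0.79 and -0.09 for bodies, -1.02 and -0.05 for 5′ ends and -1.40 and -0.02 for 3′ ends. With only peaks whose −log10 q reached 10, the change from 10 to 20 min became 0.15 (exact permutation p = 0.667), the body strand log2 ratio -0.28 and the terminal exon log2 ratio -0.48, and the cause was not tested.

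The share of members with a replicated site minus that of the other genes was -9.28 percentage points at 10 min and -12.1 at 20 min. Leaving out a replicate and taking the sites of the other alone gave -18.9 to 7.36 at 10 min, the positive value being without replicate 1, and -24.9 to -8.10 at 20 min. The 10 min difference was -5.20 with peaks whose −log10 q reached 3 and -5.44 with lists of equal length. With peaks whose −log10 q reached 10 it was -0.162 at 10 min and -2.44 at 20 min, where 0 members had a site. Against other genes in the GC range it was -4.31 and -4.37, and at 20 min it was -6.66 against ZNF genes of other chromosomes and -5.52 against genes within 100 kb. Where sites had to share most of the shorter one, 3 members had a site at 10 min and 0 at 20 min.

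With a replicate block, the change in body density between times was -0.016 (exact sign-flip p = 0.5, the smallest that 2 pairs allow). The study's methods group the samples into 2 experiments, and the labels do not say whether the replicate numbers are these experiments. Read depth is not in the lists, and the shortest lists limit what replicate 2 at 20 min can show.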
